A study of Mus musculus with 6 samples.

Results

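A set of 92 cells was taken from the 23860 cell barcodes of 3 mouse liver RNA libraries by 5 transcripts: Prss34 and Mcpt8, basophil granule proteases, Cpa3, a protease of mast cells and basophils, Mpo, the myeloperoxidase of azurophil granules, and Cd34, a surface antigen of blood progenitors. A member had at least 2 unique molecular identifiers (UMIs, one for each captured transcript) summed over these 5 genes, no T cell receptor contig, and 0 UMIs of Cd3d, Cd3e, Cd79a, Ncr1 and Siglech. Values for the 3 libraries are given below in the order WT HFD, WT HFD+HDCA, iNKT KO HFD+HDCA, and the members numbered 10, 68 and 14. Of them, 5 were called doublets, and the other 87 (9, 65 and 13) were kept.

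The wild-type (WT) mice received a 60% high-fat diet (HFD) for 12 weeks, alone or with 0.25% hyodeoxycholic acid (HDCA), a bile acid. The iNKT KO mice lacked the Jα18 segment, without which invariant natural killer T (iNKT) cells do not form their receptor, and received the diet with HDCA. All groups therefore shared the high-fat diet, no group paired the knockout with the diet alone, and the Jα18 segment itself (Traj18) had 172 and 160 UMIs in the WT libraries and 0 in iNKT KO HFD+HDCA. Each group was 1 library of liver mononuclear cells, and the labels state neither the number of mice pooled nor their age. The protocol states a sort of 10000 CD45+ cells per sample, whereas another label names CD4+ lymphocytes. The libraries held 44332213, 70776925 and 46600746 UMIs, and 6201, 9672 and 6816 barcodes were kept after filtering. With 1 library a group there was no replicate and no test, so intervals below are exact 95% intervals that cover counting error only. Pairs of libraries shared 67 to 93 barcodes, and no barcode was a member in more than 1 library, though 2 member barcodes of the WT libraries were also present in the other WT library.

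Blood cell formation starts from stem cells and passes to early progenitors, which carry Cd34 and Kit and depend on factors such as Meis1 and Myb. Granulocyte-monocyte progenitors then load azurophil granules with Mpo, Elane and Prtn3, and a branch that keeps Gata2 makes basophils, which bind IgE and release histamine, cytokines and chemokines. In adult mice this takes place mainly in bone marrow, and the liver, the fetal site of blood formation, keeps few such cells.

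The name of basophil-lineage cells held for few of the members. Among the 87 kept cells, 4 had any Mcpt8 or Prss34, and 81 had Mpo or Cd34 with neither of the basophil proteases. The remaining 2 cells passed on Cpa3 alone. To describe the members beyond the rule, each was assigned to whichever of 5 marker lists had most UMIs in it. The stem and early progenitor list led in 61 cells, the conventional dendritic cell list in 16, the basophil list in 5, the monocyte and macrophage list in 3 and the azurophil granule list in 2. Such a class is a range on a score and not a cell type, and 9 of the members lay near the border between lists (0, 7 and 2 by library). Lymphoid progenitor and plasmacytoid dendritic cell lists were not among the 5, and 2 of the 61 progenitor-led cells held more UMIs of one of them. A cell of iNKT KO HFD+HDCA had 80 lymphoid and 31 plasmacytoid UMIs beside 28 of the stem list, and a cell of WT HFD+HDCA had 77 plasmacytoid UMIs beside 46. The plot of the stem and dendritic lists showed most members at one corner or the other.

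**Figure D1:**
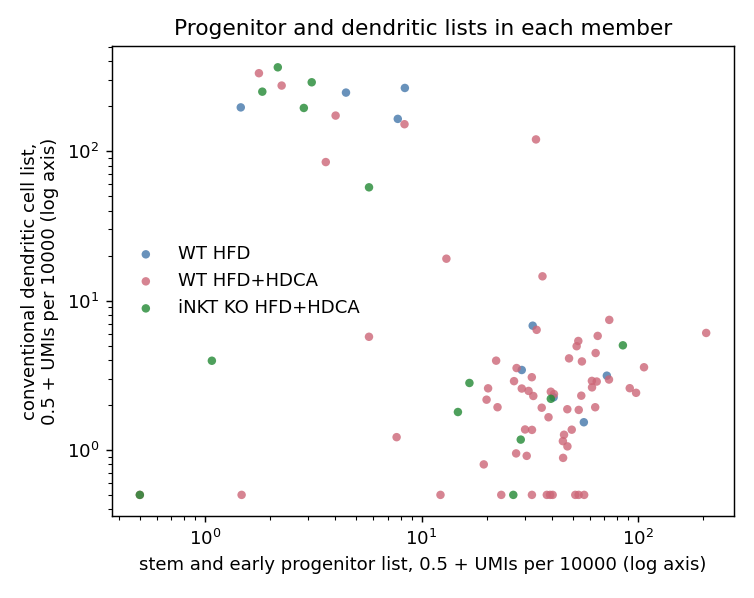
Each point is 1 of the 87 kept members, placed by its UMIs per 10000 on the stem and early progenitor list (x axis) and the conventional dendritic cell list (y axis), both as 0.5 plus the value on log axes, with colour for the library. Most cells were high on the first list and low on the second, and a smaller set from all 3 libraries was high on the second.

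Basophil protease transcripts were found in few members, and the 250 bases before the start of each gene are shown for the pair that defines them. Both are from the RefSeq promoter table of build GRCm38.p6, 5′ to 3′ on the gene's own strand, for Mcpt8 at chr14:56085198-56085447 on the minus strand and for Prss34 at chr17:25298144-25298393 on the plus strand. Capitals mark the core of the GATA motif, searched as GATAA and its reverse complement TTATC, since GATA factors act in this lineage.
Mcpt8: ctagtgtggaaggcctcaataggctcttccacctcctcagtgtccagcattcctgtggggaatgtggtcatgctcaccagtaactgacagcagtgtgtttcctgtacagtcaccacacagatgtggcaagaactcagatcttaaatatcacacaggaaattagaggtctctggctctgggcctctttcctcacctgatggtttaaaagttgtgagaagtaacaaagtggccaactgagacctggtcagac
Prss34: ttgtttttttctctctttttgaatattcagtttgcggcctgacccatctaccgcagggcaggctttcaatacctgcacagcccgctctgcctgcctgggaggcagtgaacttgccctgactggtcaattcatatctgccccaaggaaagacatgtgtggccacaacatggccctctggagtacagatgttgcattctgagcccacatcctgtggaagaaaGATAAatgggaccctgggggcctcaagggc
The Prss34 window held 1 match and the Mcpt8 window 0, and 22.6% of the 32851 promoter windows of the same length held at least 1. A match is a description of these letters only.

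The cells with basophil proteases numbered 0, 2 and 2 in the 3 libraries, so both libraries of mice fed HDCA held such cells and WT HFD held none. The 0 of 6201 cells in WT HFD allows a share of up to 0.0484% by a limit of 3 counts, and the exact interval ends at 0.0595%. The shares in the other libraries were 0.0207% (interval 0.00250% to 0.0747%) and 0.0293% (0.00355% to 0.106%), which overlapped widely. B cells were taken as kept barcodes without a contig that had at least 3 UMIs of Cd79a. None of them had a UMI of Prss34 or Mcpt8 in any library, among 2200, 3579 and 2857 B cells with a median of 4519.5, 4413 and 4256 UMIs. The B cells had Cd34 UMIs in 2, 7 and 3 cells and Mpo UMIs in 0, 3 and 0 cells, with 24 Mpo UMIs in those 3 cells.

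One WT HFD+HDCA cell held most of the protease transcripts. It had 1405 UMIs of Prss34, 343 of Mcpt8 and 121 of Cpa3 among 27879 UMIs in all, and was not called a doublet. It also had 89 UMIs of Mpo, 98 of Ctsg, the azurophil protease cathepsin G, and 29 of Ms4a3, a gene of granulocyte-monocyte progenitors. The IgE receptor chain Fcer1a had 110 UMIs and the transcription factor Gata2 45, whereas the chemokine Ccl3 had 4. The cell thus carried granule transcripts of both kinds at once, with 1 UMI of Cd34 and 0 of Kit, the stem cell factor receptor.

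Another pattern was shared by 3 cells with Mcpt8 and no Prss34, Mpo or Cd34, of which 1 was called a doublet. The kept cell of WT HFD+HDCA had 4 UMIs of Mcpt8, 11 of Cpa3, 20 of Hdc, the histamine-forming enzyme, 12 of Cd200r3 and 18 of Gata2. The kept cell of iNKT KO HFD+HDCA had 3 UMIs of Mcpt8, 6 of Cpa3, 8 of Hdc, 11 of Cd200r3 and 4 of Gata2. The WT HFD+HDCA cell called a doublet had 7 UMIs of Mcpt8, 27 of Hdc and 5 of Cd200r3, all in 5150 UMIs. Their Ccl3 was 69, 70 and 46 UMIs and their Ccl4, a related chemokine, 47, 99 and 57 UMIs. Il4 had 2, 3 and 2 UMIs and Il6 3, 2 and 2 UMIs, so each of the 3 held transcripts of both cytokines. These were small libraries (5577, 6406 and 5150 UMIs) beside the 27879 UMIs of the Prss34-rich cell, and Ctsg was at 0 in both WT HFD+HDCA cells and at 3 UMIs in the iNKT KO HFD+HDCA cell.

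Other members with basophil transcripts were mixed. The remaining iNKT KO HFD+HDCA cell had 1 UMI of Prss34, 56 of Cpa3, 12 of Kit, 12 of Gata2, 90 of Gzmb, a cytotoxic granule protease, 8 of Angpt1 and 0 of Mcpt8. A WT HFD+HDCA cell led by the basophil list had 9 UMIs of Cyp11a1, a steroid-forming enzyme of basophils and mast cells, with 6 of Cd200r3, 38 of Ccl3, 15 of Flt3 and 7 of Meis1, and entered on 2 UMIs of Cpa3 and 1 of Cd34. By the genes named after their values were seen, the 4 kept cells with a basophil protease were led over the other cells without a contig by Ifitm1, Hdc, Cd200r3, Ms4a2 and Csrp3. Ms4a2, the beta chain of the IgE receptor, was found in 4 of 4 of them, at 466 CPM (counts per 1000000 UMIs, mean of libraries) against 0.0716 CPM in the other cells.

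The progenitor-led cells were the most numerous members, and most came from 1 library. They numbered 5 of 6201, 51 of 9672 and 5 of 6816 kept cells, with the 51 in WT HFD+HDCA. These are shares of 0.0806% (interval 0.0262% to 0.188%), 0.527% (0.393% to 0.693%) and 0.0734% (0.0238% to 0.171%). The share in WT HFD+HDCA was 6.54 times that in WT HFD (2.63 to 21.0), and the share in iNKT KO HFD+HDCA was 0.139 times that in WT HFD+HDCA (0.0433 to 0.346). At full depth the WT HFD+HDCA interval did not overlap either of the others. Their median depth was 13661, 11932 and 11772 UMIs. After each cell was thinned to 2000 UMIs before the rule was applied, which left 6016, 9384 and 6518 cells, the ratios were 3.85 (1.32 to 15.3) and 0.0600 (0.00146 to 0.368). The thinned shares of WT HFD (0.0665%, 0.0181% to 0.170%) and WT HFD+HDCA (0.256%, 0.164% to 0.380%) had intervals that overlapped. Differences between mice, sorts and libraries cannot be told apart from diet and genotype here.

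The dendritic-led members did not follow this pattern. They numbered 4, 7 and 5, or 0.0645%, 0.0724% and 0.0734% of kept cells. The ratio was 1.12 (0.285 to 5.23) for WT HFD+HDCA over WT HFD and 1.01 (0.254 to 3.71) for iNKT KO HFD+HDCA over WT HFD+HDCA, intervals wide enough to hold several-fold differences. All members together made up 0.145% (0.0664% to 0.275%), 0.672% (0.519% to 0.856%) and 0.191% (0.102% to 0.326%) of kept cells.

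**Figure D2:**
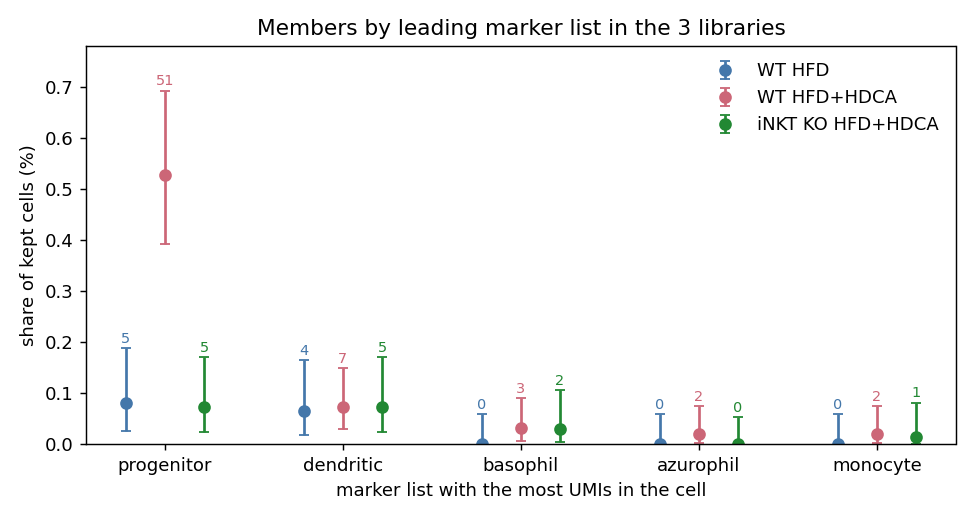
Share of kept cells (y axis, %) made up by members led by each of 5 marker lists (x axis), in the 3 libraries, with exact 95% binomial intervals and the number of cells printed above each. The 51 progenitor-led cells of WT HFD+HDCA stood above the 5 and 5 of the other libraries, and the dendritic-led shares were close together.

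Members just inside and outside the threshold differed in make-up. With 2 summed UMIs there were 2, 12 and 6 barcodes, of which 1, 7 and 1 were progenitor-led and 1, 4 and 4 dendritic-led. With 1 summed UMI there were 10, 13 and 6 barcodes, of which 1, 2 and 0 were progenitor-led and 7, 7 and 2 dendritic-led. The threshold cost few progenitor-led cells. Among barcodes with at least 20 UMIs of the stem list, led by it and passing the negative criteria, 5 of 5, 50 of 53 and 5 of 5 were members.

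Cd34 was the transcript by which most progenitor-led cells entered. It was found in 4 of 5 cells (0 to 15 UMIs, median 6), 49 of 51 cells (0 to 35, median 6) and 5 of 5 cells (2 to 8, median 3) of the 3 libraries. Mpo was found in 1 of 5, 15 of 51 and 0 of 5 cells, Cpa3 in 1 of 5, 10 of 51 and 0 of 5, and Mcpt8 and Prss34 in none of the 61. Over all leading lists, cells with Mpo and no basophil protease numbered 1, 19 and 0, and the 0 of 6816 cells in iNKT KO HFD+HDCA allows up to 0.0440% by the limit of 3 counts (exact interval to 0.0541%). Cells with Cd34, no Mpo and no basophil protease numbered 7, 43 and 11.

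Beyond the rule genes, the 61 progenitor-led cells shared stem and progenitor genes. Of the measured genes of the stem and early progenitor list, 10 of 12, 12 of 14 and 9 of 12 were at least 2-fold above the other cells without a contig in the 3 libraries (20 CPM added to both sides). Over all genes tested, 8.29%, 4.66% and 7.90% were that much higher and 8.26%, 4.28% and 9.92% that much lower. The list chose these cells, so its count is a description only. Sox4, a transcription factor of progenitors, was found in 61 of 61 cells, at 634, 593 and 347 CPM against 10.3, 10.3 and 12.9 CPM in the other cells. Meis1 was at 373, 413 and 378 CPM, close together in all 3 libraries. Hlf, a transcription factor of stem cells, had 211, 187 and 299.6 CPM, of which the last came almost wholly from 1 cell with 94.7% of the UMIs. Other genes that led the set were Adgrl4, an adhesion receptor, in 53 of 61 cells, Adgrg1, another adhesion receptor, in 42 (410, 334 and 0 CPM, so in none of the 5 iNKT KO HFD+HDCA cells), Sstr2, a somatostatin receptor, in 33, and Tsc22d1 in 59. Sox4, Meis1, Hlf and Adgrl4 are on the list that chose these cells, so their values are a description only.

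Of the 14 stem and early progenitor genes, 10 were lower and 4 higher in the 5 cells of iNKT KO HFD+HDCA than in the 51 of WT HFD+HDCA. Over all genes tested in this comparison, 44.1% were higher by any amount. Lymphoid progenitor genes were higher for 4 of 4 (2208 against 938 CPM), but 1 cell held 80 of the 140 UMIs of that list. Flt3 is on both the lymphoid and the stem list. The T cell list was at 426 against 96.4 CPM, with 20 of its 27 UMIs in 1 cell. The part of the lymphoid and T cell lists in the values below was not tested. Kit was found in 5 of 5, 43 of 51 and 1 of 5 cells, at 236 CPM (142 to 369), 268 CPM (231 to 309) and 47.3 CPM (9.76 to 138). Myb was found in 5 of 5, 37 of 51 and 1 of 5 cells, at 286 CPM (181 to 429), 314 CPM (273 to 358) and 15.8 CPM (0.399 to 87.9). Cdk6, a cell cycle kinase of early progenitors, was at 833, 613 and 142 CPM, and Angpt1, a ligand made by stem cells, at 596, 787 and 126 CPM. Flt3, the receptor of multipotent and lymphoid progenitors, stood the other way at 410 CPM (282 to 576), 443 CPM (395 to 495) and 757 CPM (558 to 1004). The intervals of Kit, Myb and Flt3 for iNKT KO HFD+HDCA did not overlap those of WT HFD+HDCA, but they cover counting of UMIs in 5 cells and not differences between cells.

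Lineage transcripts were uneven among the 51 progenitor-led cells of WT HFD+HDCA. Hlf or Mecom, factors of stem cells, were found in 38 of 51 cells (74.5%, 60.4% to 85.7%). At least 2 UMIs of Flt3 were found in 41, at least 2 of Dntt, the lymphoid DNA polymerase TdT, in 17, and at least 1 of Mpo in 15, with Dntt and Mpo together in 6. Erythroid genes (Gata1, Klf1 or Epor) reached 2 UMIs in 2 cells and megakaryocyte genes (Pf4, Itga2b or Gp9) in 3. Elane, the neutrophil elastase that follows Mpo in azurophil granules, had 0 UMIs in all 61 progenitor-led cells. Prtn3, its neighbour in the same granules, had 109 UMIs over 24 of the 51 cells. Fcer1a had 0 UMIs in all 61 cells. Dntt stood at 422, 275 and 962 CPM, but 1 cell held 82.4% of its UMIs in WT HFD and 1 cell 93.4% in iNKT KO HFD+HDCA.

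**Figure D3:**
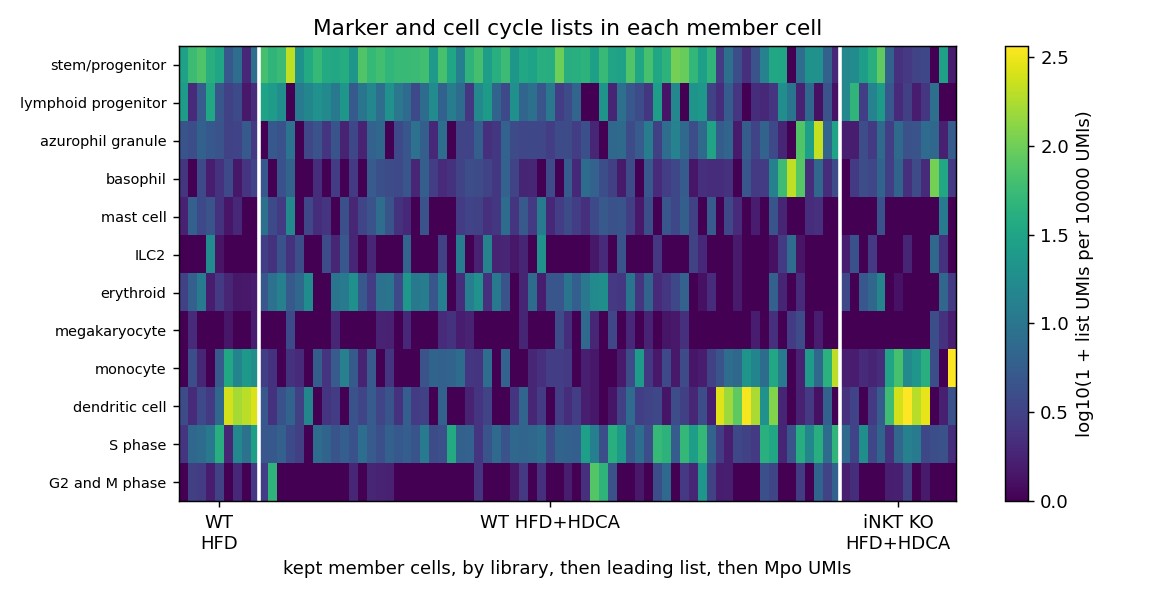
Each column is 1 of the 87 kept members, grouped by library (white lines) and ordered by leading list and then Mpo UMIs, and each row is a marker or cell cycle list, coloured by log10 of 1 plus its UMIs per 10000. The stem and progenitor row is bright in most WT HFD+HDCA columns, and the basophil row in few. The dendritic row is bright in 4, 7 and 5 columns, which follow the progenitor-led columns of each block.

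Cells with Mpo differed from those without it in cycling and interferon genes. The 15 cells of WT HFD+HDCA with Mpo had a median of 23.9 UMIs per 10000 on the S phase list (3.16 to 51.3), and the 36 cells without Mpo a median of 4.82 (0 to 36.0). Ribosome biogenesis genes stood at medians of 46.6 and 28.8 UMIs per 10000, and the azurophil granule list, which does not hold Mpo, at 6.19 and 2.60. That list also holds Calr, a chaperone gene, and the part of each of its genes in the difference was not tested. The type I interferon list went the other way, with 4.92 against 14.8, as did the lymphoid progenitor list with 2.97 against 9.24 and immediate early genes with 36.1 against 78.5. The stem and early progenitor list was nearly level, at 44.6 and 42.7. The ranges overlapped on every one of these lists. The cells with Mpo also held more UMIs, a median of 19506 against 11099.5, and the part of depth in this split was not tested. Cells with at least 3 UMIs of Mki67 or Top2a, genes of dividing cells, numbered 1 of 5, 7 of 51 and 0 of 5 in the 3 libraries.

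**Figure D4:**
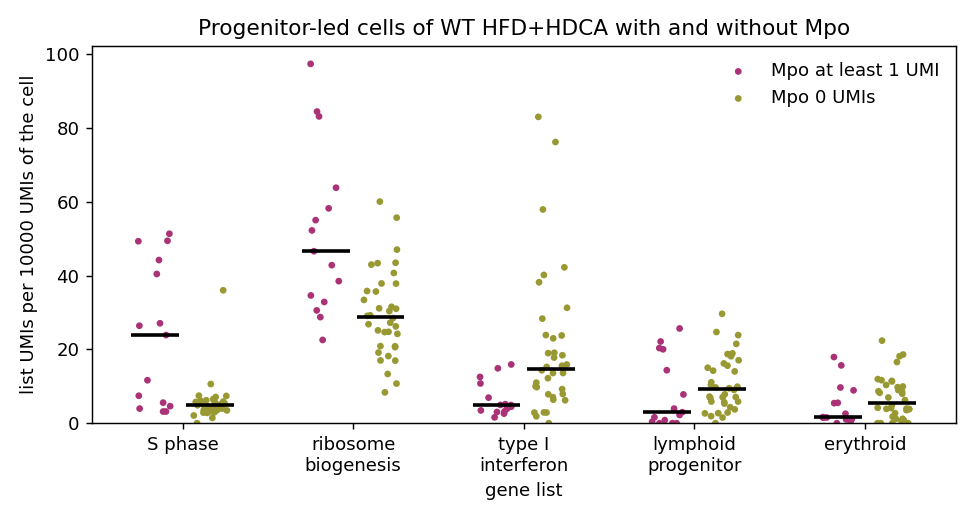
UMIs per 10000 of the cell (y axis) on 5 gene lists (x axis) in the progenitor-led cells of WT HFD+HDCA, as points for the 15 cells with Mpo and the 36 without, with a bar at each median. The S phase and ribosome biogenesis medians were higher in the cells with Mpo and the type I interferon and lymphoid medians lower, with overlapping ranges.

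Between libraries, gene lists were compared in the progenitor arm, all 81 kept cells with Mpo or Cd34 and no basophil protease. Its make-up differed, with dendritic-led cells at 4 of 8, 7 of 62 and 5 of 11 in the 3 libraries, so values for progenitor-led cells alone are set beside it. In WT HFD+HDCA over WT HFD, 15.2% of genes tested were at least 2-fold higher and 4.28% lower. In iNKT KO HFD+HDCA over WT HFD+HDCA, 6.05% were higher and 17.1% lower. The arm held 146509, 937087 and 186028 UMIs in the 3 libraries, and its progenitor-led cells were as uneven. A gene was tested with at least 20 UMIs summed over both libraries, so it could pass on WT HFD+HDCA counts alone. That favours genes higher in WT HFD+HDCA in both comparisons, and its part in these percentages was not tested. The stem and early progenitor list was higher for 13 of 14 genes in the first comparison and for 1 of 14 in the second, where 62.3% and 38.7% of all genes tested were higher by any amount. With at least 5 summed UMIs the list stood higher in iNKT KO HFD+HDCA, at 5865 CPM over only 2 cells, than in WT HFD+HDCA (4212 CPM), against 1199 and 3737 CPM at the threshold of 2. These comparisons share the WT HFD+HDCA library. Among progenitor-led cells alone, where 12.6% and 6.97% of genes tested were at least 2-fold higher and lower in WT HFD+HDCA over WT HFD, the list was higher for 9 of 14 genes beside 51.8% of all genes. In iNKT KO HFD+HDCA over WT HFD+HDCA it was higher for 4 of 14 beside 44.1% of all genes.

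Type I interferon genes were compared between the progenitor-led cells of WT HFD+HDCA and WT HFD. They were higher in the former for 14 of 16 measured genes. The median log2 ratio was 1.10, against 0.00 over all genes tested, of which 51.8% were higher. Without the 2 cells that entered on Cpa3 alone, 11 of 16 were higher. The 16 genes of the first count held 899 UMIs in WT HFD+HDCA and 50 in WT HFD. A gene could thus be measured on WT HFD+HDCA counts alone, which favours genes higher in that library. The part of this selection in the counts of higher genes was not tested. Isg15, a ubiquitin-like protein induced by interferon, stood at 37.3 CPM (7.69 to 109) in WT HFD and 101 CPM (78.5 to 127) in WT HFD+HDCA, intervals that overlapped. Per cell the list ran from 3.10 to 15.4 UMIs per 10000 in WT HFD (median 4.54) and from 0 to 83.0 in WT HFD+HDCA (median 11.0), so the WT HFD cells lay within the range of the others.

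Sterol synthesis and immediate early genes were higher in the 5 progenitor-led cells of iNKT KO HFD+HDCA than in the 51 of WT HFD+HDCA, where 8.07% of genes tested were at least 2-fold higher and 15.3% lower. By any amount, 44.1% of all genes tested were higher. Sterol synthesis genes were higher for 11 of 11 measured genes (median log2 ratio 1.66). Per cell, however, the 5 cells had 65, 49, 8, 5 and 3 UMIs of the list, so 2 cells carried most of it. Hmgcs1, an early enzyme of the pathway, was found in 2 of these 5 cells (284 CPM, against 43.2 CPM in WT HFD+HDCA). Immediate early genes were higher for 12 of 15 (median log2 ratio 0.86), with 41.5 to 183 UMIs per 10000 in the 5 cells and 6.06 to 197 in the 51. Ccl3 stood at 161, 646 and 1593 CPM and Ccl4 at 348, 796 and 2224 CPM in the 3 libraries, and both were found in 5 of 5 cells of iNKT KO HFD+HDCA. In summed UMIs, S phase genes were lower for 15 of 15 (median log2 ratio -0.98). Per cell, the medians were 5.64 UMIs per 10000 in the 5 cells (2.31 to 18.0) and 5.12 in the 51 (0 to 51.3), so the medians were close and the highest cells were in WT HFD+HDCA.

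The 16 dendritic-led members, which entered on Cd34, carried genes of antigen-presenting cells. H2-Aa, an MHC class II chain, stood at 11014, 8570 and 11782 CPM against 3498, 3618 and 3339 CPM in the other cells without a contig. Cst3, a protease inhibitor abundant in dendritic cells, was found in 16 of 16, Batf3, a transcription factor of conventional dendritic cells, in 14 and Clec9a, a receptor of the cross-presenting type, in 8. H2-Aa and Clec9a are on the list that chose these cells, so the values of both are a description only. Some of the cells were mixed. In WT HFD+HDCA, 1 cell also had 61 UMIs of the Kupffer cell list. Another had 112 UMIs of the monocyte list, 111 of the stem list and 41 of the basophil list beside 398 of the dendritic list. Cd34 in the dendritic-led members ran from 2 to 8, 2 to 4 and 2 to 3 UMIs in the 3 libraries. A wider set was taken as all kept cells without a contig that had at least 100 UMIs of the dendritic list. In it, 5 of 103 (4.85%), 10 of 254 (3.94%) and 5 of 123 (4.07%) had at least 2 UMIs of Cd34. This share was close in the 3 libraries at that cut. The negative criteria of the rule were not applied to this set, so it can share cells with the B cells. At least 1 UMI was found in 14 of 103, 20 of 254 and 8 of 123 of these cells, a less even share that was highest in WT HFD. The B cells had at least 1 UMI of Cd34 in 0.0909%, 0.196% and 0.105% of cells, at median depths of 4519.5, 4413 and 4256 UMIs against 12261, 13112 and 11203 in the dendritic-list cells.

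Granule and monocyte genes led the last members. In WT HFD+HDCA, 1 azurophil-led cell had 488 UMIs of Mpo, 366 of Elane, 164 of Prtn3, 106 of Ctsg and 22 of Myb, the full set of early granule proteins. The other had 24 UMIs of Mpo, 27 of Prtn3, 1 of Elane, 16 of F13a1, a gene of monocytes, and 9 of Flt3. A monocyte-led cell of the same library held 385 UMIs of Lyz2, the lysozyme of myeloid cells, beside 42 of Prtn3 and 17 of Elane, and 1 in iNKT KO HFD+HDCA held 552 of Lyz2. No kept WT HFD member was led by these lists. The 2 cells that entered on Cpa3 alone were progenitor-led. The WT HFD cell had 9 UMIs of Cpa3, 25 of Il7r, the interleukin 7 receptor of lymphoid cells, and 21 of Sox4. The WT HFD+HDCA cell had 10 UMIs of Cpa3, 17 of Kit, 22 of Rora and 6 of Gata3, factors of innate lymphoid cells.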

How the data were processed

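Counts of UMIs per gene and barcode were used as deposited, made with Cell Ranger 8.0.1 per the file headers. Text in other deposited files gave barcodes, gene names and T cell receptor contigs. Both mm10 and GRCm39 are named in the submitters' processing notes. Filtering removed barcodes with fewer than 200 genes, those with 10% or more mitochondrial UMIs, and Scrublet doublets, called library by library in scanpy 1.11.5. Counts were summed over cells and given as CPM of the group. Shares have exact Clopper-Pearson intervals, ratios of shares exact conditional intervals and CPM exact Poisson intervals. A list gene was measured between libraries with at least 20 UMIs summed over both. WT HFD+HDCA held most of these UMIs, so a gene could pass on counts of that library alone. With 1 library a group no p-value was computed, and the code was tested on simulated data.

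Named genes were, in each arm, the 15 with the highest fold over other kept cells without a contig (20 CPM added, at least 20 UMIs, no cell over 50% of the UMIs). The same rule was applied to progenitor-led, dendritic-led and protease-positive cells after the values were seen. Other genes named are rule genes, members of the basophil, azurophil granule or stem and progenitor lists, or genes chosen as examples after their values were seen, such as Isg15, Hmgcs1, Ccl3, Ccl4 and H2-Aa. Single cells of the small groups were described after their values were seen. The rule for genes between libraries needs 20 cells in both, which no pair of libraries had. A gene that led the progenitor-led cells is not reported here. The members and lists were chosen with earlier results of these data known. Alternatives were the summed UMI threshold, doublets, thinning to 2000 UMIs, gene minimums and leaving out the deepest cell.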

Additional observations from a re-analysis of the deposited data

How the results depend on the processing

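Ratios of shares kept their direction for all members, the progenitor arm and progenitor-led cells under the alternatives run. The basophil arm, 1 cell in each HDCA library, had a ratio of 1.42 for iNKT KO HFD+HDCA over WT HFD+HDCA, and 0.714 with doublets kept. Values are in the order WT HFD, WT HFD+HDCA, iNKT KO HFD+HDCA. At 3 summed UMIs the progenitor arm of iNKT KO HFD+HDCA fell to 0.0734% of kept cells. At 5 summed UMIs all members made up 0.434% and 0.0587% in the last 2 libraries (ratio 0.135), the progenitor arm 0.403% and 0.0293% (ratio 0.0728), and progenitor-led cells 0.372% in WT HFD+HDCA. The basophil list in the progenitor arm was then at 297 and 388 CPM in the last 2 libraries (335 and 253 CPM at the threshold of 2), and the stem list at 2754, 4212 and 5865 CPM in the 3 libraries (2095, 3737 and 1199 CPM). The order of the last 2 libraries thus turned on both lists, with 2 cells left in iNKT KO HFD+HDCA. After thinning to 2000 UMIs all members were 0.298% and 0.0460% in the last 2 libraries, the progenitor arm 0.0499%, 0.256% and 0.0307% in the 3 libraries, and progenitor-led cells 0.256% and 0.0153%. Thinned, 205 genes were at least 2-fold higher and 85 lower in WT HFD+HDCA over WT HFD, and 104 and 199 in iNKT KO HFD+HDCA over WT HFD+HDCA, against 1102, 309, 444 and 1256 unthinned, with fewer genes tested. The share of immediate early genes higher in WT HFD+HDCA over WT HFD turned to 53.8% thinned, where type I interferon genes reached 100%, or 3 of 3 genes left with enough UMIs. In progenitor-led cells of the arm alone, an alternative chosen after seeing the data, it turned to 66.7%, the stem list to 50%, heat shock to 22.2%, and sterol synthesis in iNKT KO HFD+HDCA over WT HFD+HDCA reached 100%. Without the cell with most UMIs in each library, 81.25% of S phase genes were higher in WT HFD+HDCA over WT HFD. The cause was not tested. No paired analysis was possible because each group had 1 library, so no library could be left out. The basophil arm gave no ratio against the 0 cells of WT HFD.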
